A study of Ovis aries with 16 samples.

Results

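The sheep-named microRNAs (miRNAs) miR-3955 to miR-3959 were examined in testis of well-fed and underfed male sheep. They were chosen by name and by being listed with a value in the files, whichever arm of the hairpin they came from, and the rule itself did not use the difference between diets, though the group was put together with earlier results of these data known. This gave 4 of the 271 miRNAs listed, all among the 103 known sheep miRNAs: oar-miR-3958-3p, oar-miR-3959-5p, oar-miR-3959-3p and oar-miR-3955-5p. Of the 5 hairpins, miR-3956 and miR-3957 were not analysed here, and neither were the other arms of miR-3955 and miR-3958. The well-fed group was 8 males fed to gain 10% of body mass over 65 days, and the underfed group was 8 males fed to lose 10% over the same 65 days. All 16 were sexually mature, each gave 1 small RNA library of testis tissue, and the males are separate animals. Testis is a mixture of germ cells, Sertoli cells, Leydig cells, peritubular smooth muscle, vessels and blood, so fewer cells of a type and less RNA per cell cannot be told apart in any difference given here.

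A miRNA is cut from a hairpin precursor, and either side of the hairpin can leave a mature RNA, named 5p or 3p for the arm. The mature RNA guides a silencing complex to messenger RNAs that pair with its first bases. The 5 hairpins lie among the many miRNA hairpins of the imprinted DLK1-DIO3 region, whose non-coding RNAs are expressed from the chromosome inherited from the mother. The particular targets of miR-3955 to miR-3959 are not described here.

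In the RefSeq annotation of the ARS-UI_Ramb_v3.0 assembly, all 5 hairpins were on chromosome 18, in a run of 55 miRNA hairpins. That assembly differs from the Oar_v3.1 build of the deposited data and was used for neighbours only. The miR-3955 hairpin stood between miR-370 and miR-379, the 9th of the run. The miR-3958 hairpin stood between miR-495 and miR-376e, and miR-3959 stood between miR-655 and miR-487a. In the positions that the paper lists on Oar_v3.1, miR-376b and not miR-376e comes next after miR-3958. The hairpins of miR-3956 and miR-3957 were in the same run, the first between miR-1185 and miR-381 and the other between miR-541 and miR-409.

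Levels are CPM, the reads of a miRNA scaled to a fixed total of all miRNA reads in the same library. Read numbers were recovered from the CPM, and all values of the 4 miRNAs were whole reads. The libraries held between 17163 and 1058985 miRNA reads. Well-fed replicate 5 and underfed replicates 6 and 8 held fewer than 100000, and 1 read was worth 58.3, 35.98 and 19.96 CPM there, against 0.944 to 6.71 CPM in the other 13. In 7 underfed males the library had more miRNA reads than piRNA reads, with ratios from 1.40 to 3.13. In underfed replicate 1 that ratio was 0.517, within the well-fed range of 0.355 to 0.908.

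Most reads of the 4 miRNAs came from oar-miR-3958-3p. It took 83.8% of their 1829 reads in well-fed and 77.9% of their 1068 reads in underfed males. The 5p arm of miR-3959 took 13.6% and 19.4%. The 3p arm of miR-3959 took 1.42% and 1.59%, and oar-miR-3955-5p took 1.15% and 1.12%. By mean CPM over all males oar-miR-3958-3p was the 80th of the 271 miRNAs, oar-miR-3959-5p the 132nd, oar-miR-3959-3p the 222nd and oar-miR-3955-5p the 242nd. Among the 50 listed miRNAs of the chromosome 18 list with the members included, they stood at places 4, 10, 37 and 43. That list was drawn up by name, and miRNAs of chromosome 18 not named in it are not counted. These are levels per read and were not divided by length, since mature miRNAs are of nearly equal length.

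**Figure D1:**
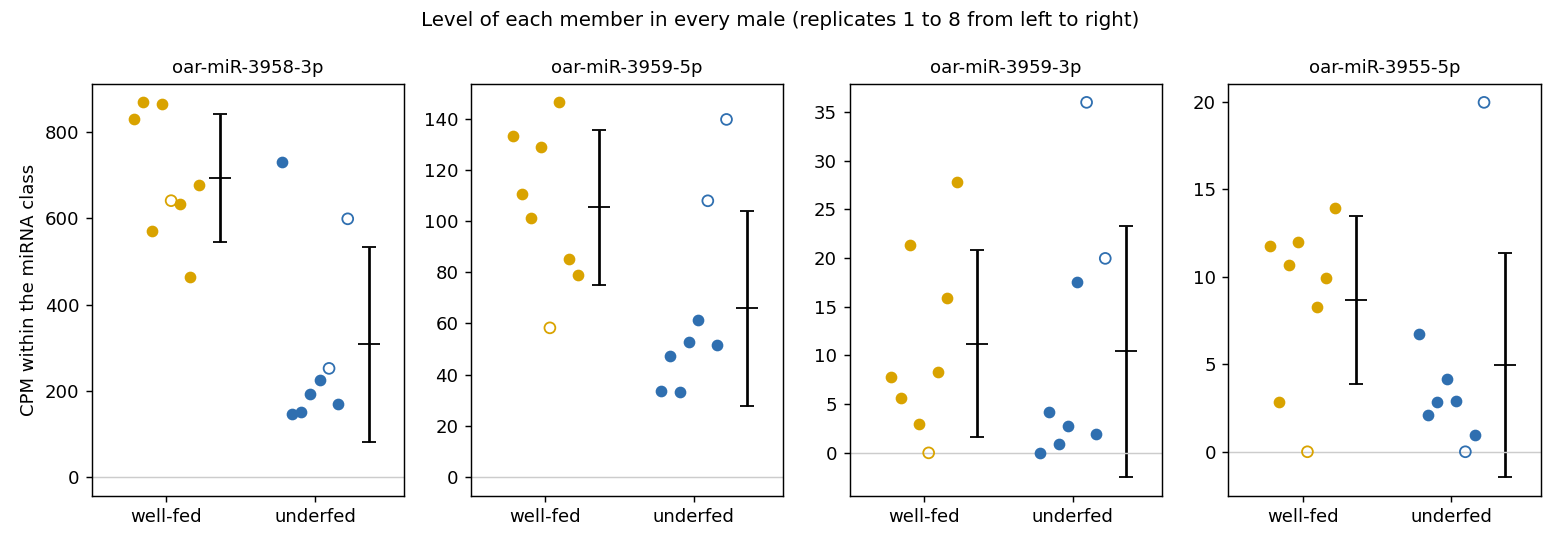
CPM within the miRNA class (linear axis) of each of the 4 miRNAs in every male, with replicates 1 to 8 from left to right in each diet; open circles are the 3 libraries under 100000 miRNA reads, and the black marks are the mean ± SD of 8 males. Underfed replicates 1 and 8 stand at 731 and 599 CPM of oar-miR-3958-3p, above the other 6 underfed males at 145 to 252 CPM.

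The leading miRNA, oar-miR-3958-3p, was lower in underfed testis. In well-fed males its level was 464 CPM at the lowest, 659 CPM at the median and 869 CPM at the highest. In underfed males it was 145 CPM at the lowest, 209 CPM at the median and 731 CPM at the highest. Of the underfed males, 6 lay below every well-fed male, at 145 to 252 CPM, and underfed replicates 1 (731 CPM) and 8 (599 CPM) lay within the well-fed range, so the diets overlapped. Well-fed males averaged 694 ± 148 CPM (SD, n = 8), whereas underfed males averaged 308 ± 226 CPM (SD, n = 8), an FC (mean CPM, underfed over well-fed) of 0.444. TMM factors, which set libraries to a common level from the trimmed mean of their log ratios, were then applied. On the log2(scaled CPM + 1) scale the difference between diets was -0.94 (SE 0.26, 95% interval -1.48 to -0.40), with limma's FDR (Benjamini-Hochberg, over all miRNAs tested) = 0.0369. It was the 11th of the 244 miRNAs tested when ordered by p.

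Called here means an FDR under 0.05 with FC under 0.67 or above 1.5. Of the 4 miRNAs, 1 was called, and it was lower in underfed males, while 2.46% of all 244 miRNAs tested were called lower. Leaving out 1 male at a time ended the call in 11 of 16 fits, with FDR up to 0.0772. Those were the fits without well-fed replicate 1, 2, 4, 5, 6 or 8 and without underfed replicate 2, 3, 4, 5 or 7, and the log2 difference in all 16 stayed between -1.08 and -0.87.

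When miRNAs and piRNAs were scaled together the difference of oar-miR-3958-3p was 0.01 (95% interval -0.58 to 0.61, limma FDR = 0.982). That scaling moved the median of all miRNAs tested from -0.08 to 0.81 on the log2 scale. Relative to that median, oar-miR-3958-3p was at -0.80, and with TMM within the miRNAs it was at -0.86 relative to the median there. As CPM of both classes together, before any scaling factor, the well-fed mean was 251 ± 55.2 (SD, n = 8) and the underfed mean was 169 ± 89.8 (SD, n = 8).

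**Figure D2:**
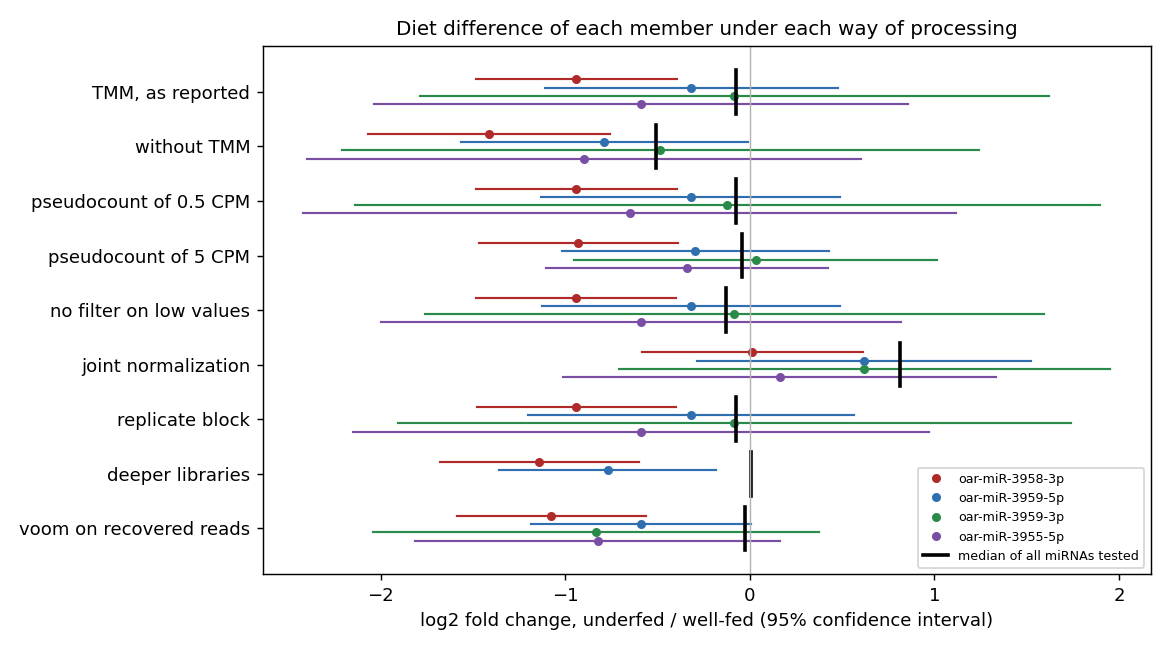
Log2 fold change (underfed over well-fed) of each of the 4 miRNAs with its 95% confidence interval, as reported and under 8 other ways of processing; black bars are the median of all miRNAs tested in the same setting. The value of oar-miR-3958-3p lies between -1.41 and -0.93 in the settings within the miRNA class and at 0.01 under joint normalization, where the median of all miRNAs is 0.81.

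The 2 underfed males with a high oar-miR-3958-3p also stood near the well-fed males in their germ cell miRNAs. The predicted miRNAs candidate-miR-30, candidate-miR-31 and candidate-miR-161, whose numbers are those of the files, are paired by the study with miR-34b, miR-34c and miR-449a, which are known from meiotic and later germ cells. All 3 were listed, none was at 0 in all males, and their summed level was 47497 to 71079 CPM in well-fed males. It was 44629 CPM in underfed replicate 1 and 58155 CPM in underfed replicate 8, against 10978 to 21706 CPM in the other 6 underfed males. Their part in the difference of oar-miR-3958-3p was not tested.

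The level of oar-miR-3958-3p was also set against these germ cell miRNAs. For every 1000 CPM of the 3 germ cell miRNAs there were 9.10 to 12.4 CPM of oar-miR-3958-3p in well-fed males (median 11.8). In underfed males there were 7.76 to 16.4 CPM (median 10.3), so the ranges overlapped on both sides. The highest, 16.4 CPM, was underfed replicate 1, and the others were at 7.76 to 13.2 CPM. This ratio was chosen after the values were seen and was given no test.

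**Figure D3:**
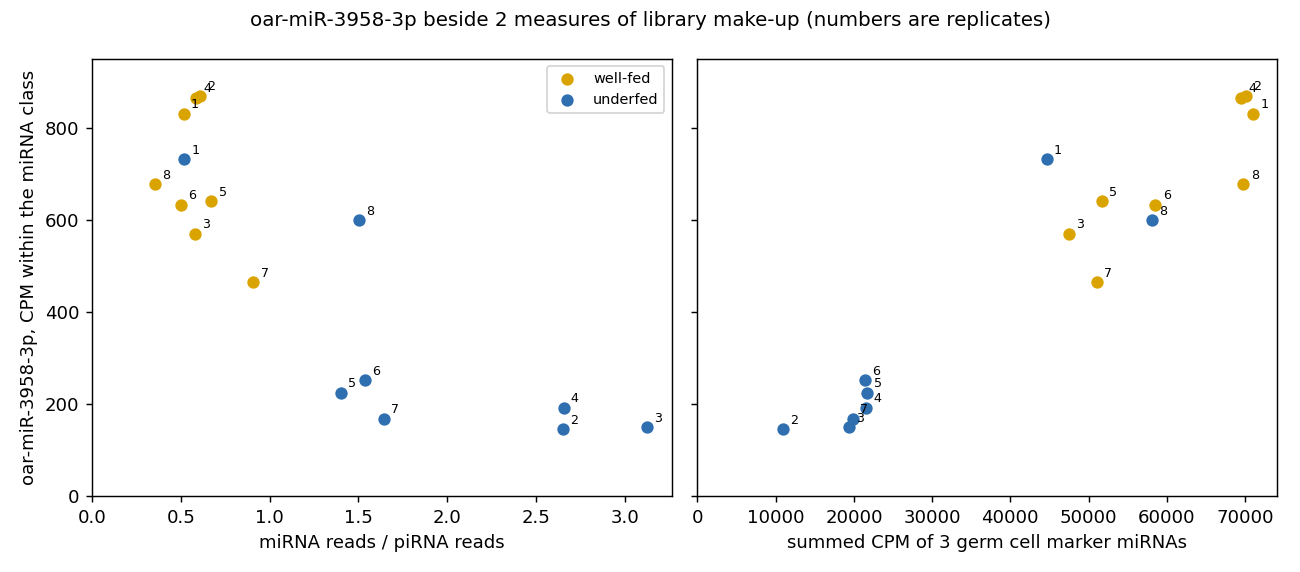
CPM of oar-miR-3958-3p in each male (vertical axis) against the ratio of miRNA to piRNA reads (left) and the summed CPM of the 3 germ cell marker miRNAs (right); each point is 1 male and its number is the replicate. Underfed replicate 1 lies among the well-fed males in the left panel at a ratio of 0.517, while underfed replicates 1 and 8 lie near them in the right panel at 44629 and 58155 CPM.

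In CPM, markers of other cell types overlapped between the diets, as did the summed germ cell miRNAs. The smooth muscle marker miR-143 was at 150264 to 207461 CPM in well-fed and 133410 to 211940 CPM in underfed males, and underfed replicate 1 was the lowest. Its partner miR-145 was listed as a homologue, candidate-miR-90, which was added after the data were seen, at 2973 to 5773 CPM in well-fed and 1547 to 9536 CPM in underfed males, with underfed replicates 1 and 8 at 5250 and 3693 CPM. The homologue of miR-486, an erythroid miRNA, was at 2336 to 7829 CPM in well-fed and 1372 to 8546 CPM in underfed males. The homologue of miR-142 of white blood cells was at 466 to 1084 CPM and 261 to 1230 CPM. The miR-200 miRNAs of epithelium, with 2 of 3 listed, summed to 11.4 to 58.3 CPM in well-fed and 15.6 to 79.8 CPM in underfed males. The homologue of miR-133 of striated muscle was at 0 to 21.3 CPM and 0 to 24.6 CPM. In the TMM fit the log2 difference was 0.52 for miR-143 (limma FDR = 0.112) and 0.62 for candidate-miR-90 (limma FDR = 0.151). The homologues of miR-142 and miR-133 were at 0.26 and 0.76, and oar-miR-200a and oar-miR-200b at 0.88 and 1.17 (limma FDR = 0.292 to 0.601). The homologue of miR-486 was at -0.20 (limma FDR = 0.734). For candidate-miR-30, candidate-miR-31 and candidate-miR-161 it was -0.80, -0.90 and -0.78 (limma FDR = 0.0930, 0.0256 and 0.0256).

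The difference of oar-miR-3959-5p did not pass the test. In well-fed males its level was 58.3 CPM at the lowest, 106 CPM at the median and 146 CPM at the highest. In underfed males it was 33.1 CPM at the lowest, 52.1 CPM at the median and 140 CPM at the highest. The lowest well-fed male and both of the highest underfed males, at 108 and 140 CPM, were the 3 shallow libraries, where the value rests on 1, 3 and 7 reads. Well-fed males averaged 105 ± 30.2 CPM (SD, n = 8), underfed males averaged 65.9 ± 37.98 CPM (SD, n = 8), and FC was 0.625. The log2 difference was -0.32 (SE 0.38, 95% interval -1.11 to 0.48), with limma's FDR = 0.601.

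In the 13 libraries above 100000 miRNA reads, oar-miR-3959-5p was at 78.8 to 146 CPM in 7 well-fed males and at 33.1 to 61.2 CPM in 6 underfed males. The diets did not overlap there, a comparison made after the data were seen, and the same held for 5.91% of the 237 miRNAs that passed the filter in these libraries. The log2 difference in them was -0.77 (95% interval -1.36 to -0.18), with limma's FDR = 0.0610, still above 0.05. With joint scaling of miRNAs and piRNAs over all 16 libraries it was 0.62 (limma FDR = 0.299), below the median of 0.81.

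The other 2 miRNAs were near the limit of detection. The level of oar-miR-3959-3p was 0 to 27.8 CPM (median 8.06) in well-fed and 0 to 35.98 CPM (median 3.49) in underfed males, from 26 and 17 reads in all. The diets overlapped over nearly their whole range, and 1 male in each was at 0. Where the reads were 0, in well-fed replicate 5 and underfed replicate 1, the floor of 3 reads allows up to 175 and 20.1 CPM. Over all 16 libraries the log2 difference was -0.08 (SE 0.82, 95% interval -1.79 to 1.62, limma FDR = 0.958), and FC was 0.927.

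For oar-miR-3955-5p the level was 0 to 13.9 CPM (median 10.3) in well-fed and 0 to 19.96 CPM (median 2.87) in underfed males, from 21 and 12 reads. The highest underfed value, in replicate 8, rests on 1 read, and no library held more than 5 reads. The males at 0 were well-fed replicate 5 and underfed replicate 6, where 3 reads would be 175 and 108 CPM. The log2 difference was -0.59 (SE 0.70, 95% interval -2.03 to 0.86, limma FDR = 0.594), and FC was 0.571. It met the filter of more than 5 CPM in at least 8 of 16 libraries with 6 well-fed and 2 underfed libraries, and oar-miR-3959-3p met it with 6 and 3. The floors cover counting error only, since reads after PCR are not independent molecules.

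All 4 differences were below 0, as were 52.9% of those of all 244 miRNAs tested. Of the 4, 3 had an FC under 0.67, as had 41% of all tested. With FC taken from TMM-scaled CPM, 1 of the 4 was under 0.67, oar-miR-3958-3p, as were 23% of all tested. Since oar-miR-3955-5p and oar-miR-3959-3p passed the filter mainly through well-fed libraries, these counts are descriptions. Variation between males was larger than counting error for oar-miR-3958-3p, with a variance 11.6 times that of counting in well-fed and 42.1 times in underfed males. For oar-miR-3959-5p the corresponding values were 1.67 and 2.62. For oar-miR-3955-5p they were 0.388 and 1.16, where counting alone would give 1.

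The number of reads of oar-miR-3958-3p for each read of oar-miR-3959-5p does not depend on the scaling of a library. It was 4.32 to 11 in well-fed males, with a median of 6.47. In 7 underfed males it was 2.33 to 4.54, and in underfed replicate 1 it was 21.8, from 109 reads against 5. The shallow libraries also rest on few reads. Well-fed replicate 5, at 11, had 11 reads against 1. Underfed replicate 6, at 2.33, had 7 against 3, and underfed replicate 8, at 4.29, had 30 against 7. Of the underfed males, 1 (replicate 3, at 4.54) lay within the well-fed range, 6 lay below it and replicate 1 lay above it. This ratio was also chosen after the values were seen, and no test was made of it.

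Both arms of miR-3959 were listed, which allowed the use of its arms to be compared between diets. In males with at least 10 reads of both arms together, the 3p arm held 2.27% to 26.1% of the reads in 7 well-fed males and 2.78% to 22.2% in 5 underfed males. The mean shares were 11.03% ± 8.81 (SD, n = 7) and 8.36% ± 8.02 (SD, n = 5). They differed by -2.67 percentage points, less than the spread between males (exact two-sided permutation test over 792 arrangements, p = 0.602). Over all males pooled, 26 of 275 reads (9.45%, exact 95% interval 6.27% to 13.5%) and 17 of 224 reads (7.59%, 4.48% to 11.9%) were of the 3p arm, and these intervals cover counting error only and leave out the spread between males. The 5p arm was the more abundant in every male.

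The neighbours of the 4 miRNAs that were tested did not pass the test. Beside miR-3955, the arms of miR-379 went both ways, with oar-miR-379-5p at -0.58 (limma FDR = 0.614) and oar-miR-379-3p at 0.69 (limma FDR = 0.524). In the RefSeq order, the log2 differences beside oar-miR-3958-3p were -0.87 for oar-miR-495-3p (limma FDR = 0.448) and -0.82 for oar-miR-376e-3p (limma FDR = 0.543). Both were close to the -0.94 of oar-miR-3958-3p but had larger errors (SE 0.71 and 0.82 against 0.26). In the paper's Oar_v3.1 positions, miR-376b comes directly after miR-3958 and miR-376e lies further along. The log2 difference of oar-miR-376b-3p was -0.09 (SE 0.80, limma FDR = 0.954), so which neighbour is close to oar-miR-3958-3p depends on the assembly. On either side of miR-3959, oar-miR-655-3p was at -1.11 (limma FDR = 0.375) and oar-miR-487a-3p at -0.82 (limma FDR = 0.531). Mean levels of the 5 neighbours of miR-3958 and miR-3959 were 8.23 to 30.9 CPM, against 501 CPM for oar-miR-3958-3p.

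Leaving out the 4 members, the chromosome 18 list held 46 listed miRNAs, of which 40 were tested. Of these, 34 had a difference below 0 and 6 above 0, while 52.9% of all 244 miRNAs tested were below 0. Of the 40, 2 were called, both lower in underfed males, while 2.46% of all tested were called lower. Their median was -0.71 on the log2 scale, against -0.08 over all miRNAs tested. With joint scaling 12 of the 40 were below 0, as were 37 of all 244 tested, and the median was 0.21 against 0.81 over all. The differences of oar-miR-3958-3p and oar-miR-3955-5p lay near this median, and those of both arms of miR-3959 lay above it. Members and neighbours were measured in the same libraries, so their values share the same scaling.

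**Figure D4:**
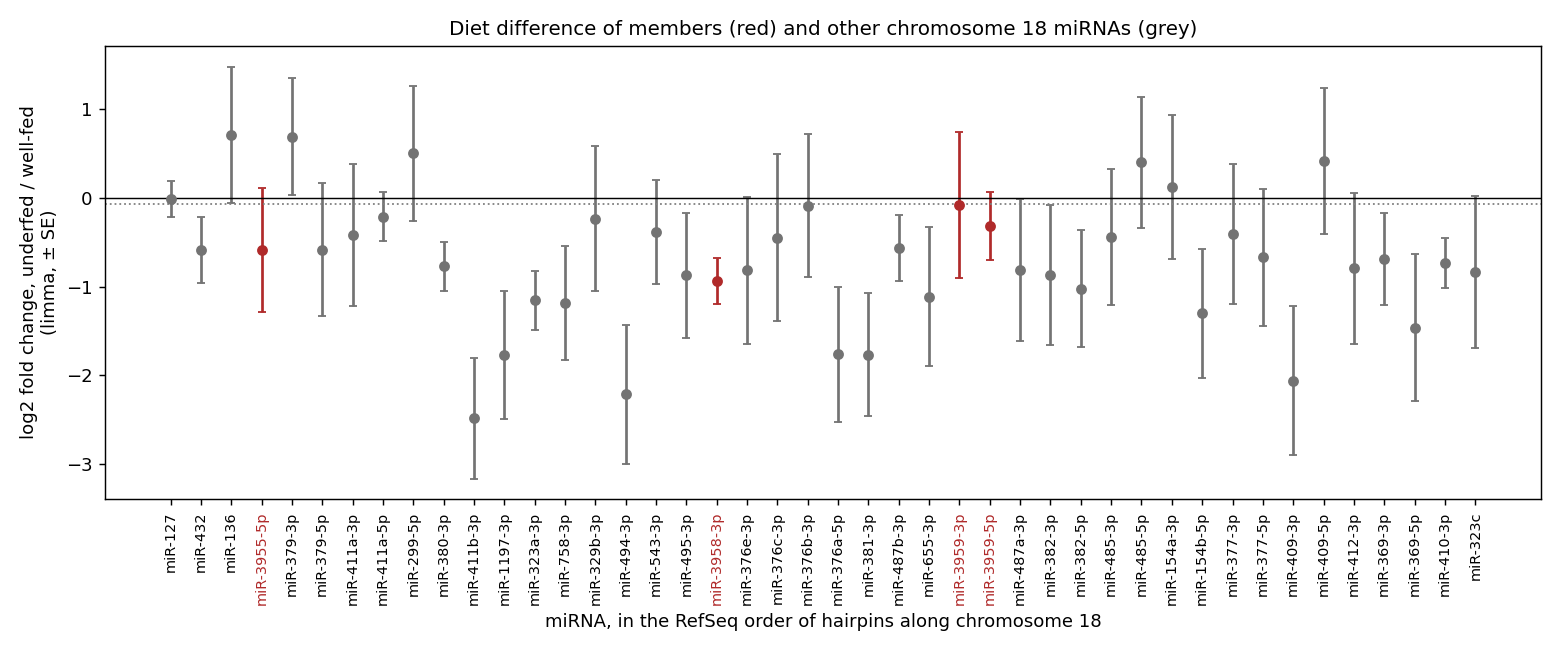
Log2 fold change (underfed over well-fed, ± SE from limma, 8 males per diet) of the tested miRNAs of the chromosome 18 list in the order of their hairpins, with miR-3955 to miR-3959 in red, other miRNAs of the list in grey and the median of all 244 miRNAs tested dotted. The error of oar-miR-3958-3p, 0.26, is smaller than that of its neighbours in the RefSeq order shown, 0.71 and 0.82.

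The 4 miRNAs were also compared within the diets. In the 13 deeper libraries, with each log2 value centred on the mean of its diet, Pearson correlations between pairs of the 4 ran from -0.62 (oar-miR-3958-3p with oar-miR-3959-3p) to 0.25 (the arms of miR-3959). Without underfed replicate 1 these were -0.35 and -0.22 over 12 libraries. For oar-miR-3958-3p with oar-miR-3959-5p the value was -0.23, and without underfed replicate 1 it was 0.65. These are descriptions over few libraries that share the scaling. Without underfed replicate 1, oar-miR-3958-3p with oar-miR-3959-3p kept its sign, while the other pairs named here changed sign. That library was left out after the data were seen.

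By the same measure, the miRNAs most like oar-miR-3958-3p were candidate-miR-45 (r = 0.84), candidate-miR-92 (r = 0.81) and candidate-miR-31 (r = 0.78), over 13 libraries. These were picked as the highest among the 244 miRNAs tested, so high values are partly a result of the picking. candidate-miR-31 is 1 of the 3 germ cell markers, and the other 2, candidate-miR-30 and candidate-miR-161, were not among these 3. Without underfed replicate 1 the correlations were 0.70, 0.42 and 0.68 over 12 libraries. Those most like oar-miR-3959-5p were oar-let-7g (r = 0.84), oar-miR-26a (r = 0.78) and oar-miR-218a (r = 0.77), and without underfed replicate 1 these were 0.75, 0.60 and 0.50. For oar-miR-3959-3p they were candidate-miR-141, candidate-miR-156 and candidate-miR-125 (r = 0.67 to 0.70), and for oar-miR-3955-5p they were candidate-miR-52, candidate-miR-165 and candidate-miR-28 (r = 0.52 to 0.57), both from few reads. Without underfed replicate 1 those were 0.49 to 0.60 and 0.49 to 0.57. None of these 12 was on the chromosome 18 list, which besides the members made up only 40 of the 244 miRNAs tested. So few matches do not show whether the members vary with that list.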

How the data were processed

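Small RNAs of 16 testes were sequenced after TruSeq small RNA library preparation. Per the paper's methods, the authors matched reads of 18 to 25 nt to miRBase, predicted further miRNAs on Oar_v3.1, took piRNAs from reads of 26 to 32 nt, and tested with edgeR. CASAVA 1.8 is named in the submitters' processing notes. The deposited values were CPM, made by the authors within each class, with miRNAs and piRNAs stacked in 1 column and each class scaled to its own total. They were not counts, so a test on counts was not the main test.

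Reads were recovered as multiples of the value of 1 read. Of low miRNA values, 93.7% to 99.0% were whole within 0.05 reads and the others were multiples of 0.5 reads. A count of 3 reads was taken as the floor, 2.83 to 175 CPM by library. TMM factors (30% of log ratios and 5% of abundances trimmed) were computed from recovered reads and were 1.08 to 1.39 in well-fed and 0.698 to 1.26 in underfed males. Log2(scaled CPM + 1) was compared between 8 and 8 males with limma 3.58.1 in R 4.3.3 (empirical Bayes trend) for the 244 miRNAs above 5 CPM in at least 8 libraries, with Benjamini-Hochberg FDR over all of them. In all, 8 were called (6 lower, 2 higher). Fold changes on this scale understate the change of low miRNAs. The test was checked on simulated data. Figures and joins used Python 3.11.15, pandas 2.3.3 and matplotlib 3.10.9.

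All members were named. Beyond them, the rule named the 3 most alike miRNAs of each member and the neighbours miR-495, miR-376b, miR-655 and miR-487a; miR-376e was added from the RefSeq order. The members and lists were chosen with earlier results of these data known. Sequences of the miRNAs were not used here.

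The alternatives were no TMM, pseudocounts of 0.5 and 5 CPM, no filter, joint scaling with piRNAs, a replicate block, the 13 libraries above 100000 miRNA reads, voom with the reads recovered, FC computed on TMM-scaled CPM, and leaving out each male. Leaving out underfed replicates 1 and 8 together was added after seeing the data.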

Additional observations from a re-analysis of the deposited data

Results flagged for a closer look

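In 1 of the 8 sets of 8 males (4 miRNAs in 2 diets), a single male stood apart by Dixon's criterion. This was oar-miR-3955-5p in underfed replicate 8, at 19.96 CPM, with the gap to the next male taking 0.664 of the range. The value is 1 read in a library of 50099 miRNA reads. By chance about 1 in 20 groups pass this criterion.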

How the results depend on the processing

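The call of oar-miR-3958-3p held in 7 of 8 refits with other processing, on all males or on the deeper libraries, and ended under joint normalization, with 0 members called and a log2 difference of 0.013. Without any 1 male the count called was 0 to 1 and the difference was -1.08 to -0.87. Joint normalization also turned oar-miR-3959-5p to 0.62, oar-miR-3959-3p to 0.62 and oar-miR-3955-5p to 0.16, and relative to the median of all miRNAs all 4 lay below 0 (-0.80, -0.19, -0.19 and -0.65). The sign of oar-miR-3959-3p also turned with a pseudocount of 5 CPM (0.031), without underfed replicates 1 and 8 (0.12, an alternative chosen after seeing the data) and in leave-one-out fits (-0.55 to 0.31); the cause was not tested. Leaving out 1 male gave -0.51 to -0.13 for oar-miR-3959-5p and -0.98 to -0.32 for oar-miR-3955-5p, which met the filter in 8 of the 16 fits. FC from TMM-scaled CPM was 0.556 for oar-miR-3958-3p, 0.863 for oar-miR-3959-5p, 0.713 for oar-miR-3955-5p and 1.35 for oar-miR-3959-3p, which thereby turned from 0.927. The share of the 3p arm of miR-3959 differed by 0.259 percentage points among males with at least 1 read, and by -6.14 to -0.16 with 1 male left out. Without underfed replicates 1 and 8, males picked by their value, oar-miR-3958-3p was at -1.26, a choice that fixes its direction.

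With the replicate number as a block, oar-miR-3958-3p was at -0.94 (limma FDR = 0.0348), 1 member was called, and 7 miRNAs were called in all, against 8; the miR-3959 arm share differed by -5.16 points over 4 pairs (exact sign flips, p = 0.5). Same-numbered males correlated at -0.18 to 0.277, with 3 of 8 pairs above 0.1, so the numbers were not taken to pair the males. The number of all miRNAs called was 36 without TMM, 60 with joint normalization, 25 in deeper libraries, 24 with voom, 15 with FC from TMM-scaled CPM, and 0 to 22 with 1 male left out. The arm share of miR-3958 was not run, since its 5p arm was not analysed here. With 0 to 8 reads per library, the depth cannot show a change of oar-miR-3959-3p or oar-miR-3955-5p unless it is large.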
